A study of Mus musculus with 8 samples.

Results

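The genes described here are 39 markers of liver cells other than hepatocytes, out of 21938 protein-coding genes in the annotation. They were listed by name for the cell type they mark, and their accessibility was not a criterion, although earlier results of these data were known when the lists were drawn up: 10 genes of Kupffer cells and other myeloid cells, 5 of lymphocytes and leukocytes in general, 10 of endothelial cells, 9 of stellate cells and fibroblasts, and 5 of cholangiocytes. Chromatin accessibility was measured by ATAC-seq, in which a transposase inserts sequencing adapters into open DNA, on nuclei from frozen livers of adult C57BL/6 mice. There were 4 control libraries, whose titles carry the word cre, and 4 libraries of Alb-D2KO mice. These lack a functional Dio2 gene, which encodes the thyroxine-activating type 2 deiodinase, in cells where Cre was expressed from the albumin promoter. Each genotype was represented by 1 pooled call of open regions, and the lists analysed hold the 8031 regions called in control and in no overlapping position in Alb-D2KO (reduced chromatin accessibility, RCAs) and the 250 regions called in Alb-D2KO alone. The nuclei came from whole liver, so fewer nuclei of a cell type and less accessible DNA per nucleus cannot be told apart. There was no replicate value for any region, and the intervals given cover counting over genes or regions only.

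The albumin promoter is active in hepatocytes and in the hepatoblasts from which both hepatocytes and cholangiocytes descend, and not in blood, endothelial or stellate lineages. Kupffer cells are the resident macrophages of the sinusoids and take up particles, lipoproteins and aged erythrocytes. Sinusoidal endothelial cells are fenestrated scavenger cells that clear hyaluronan and collagen fragments, stellate cells store retinyl esters and make collagen when activated, and cholangiocytes line the bile ducts. Hepatocytes supply most of the liver mass, and a region that is open only in a rarer cell type contributes a small part of the reads of a bulk library.

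An RCA lay in the gene body or within 10 kb of it in 8 of the 39 markers (20.5%, 95% Wilson interval 10.8 to 35.5). The same count over the other 21899 protein-coding genes was 5491, or 25.1%, so the share of the markers was close to the background. Long genes met an RCA more often, from 13.8% of the other genes in the lowest decile of gene length to 34.9% in the highest, and the markers were long, with a median of 29.6 kb against 17.4 kb for all protein-coding genes. Averaged over the length deciles of the 39 markers, 26.6% of other genes of similar length had an RCA, which lay inside the interval of the markers. Of 39 hepatocyte genes, such as those of albumin, apolipoproteins and urea cycle enzymes, 31 had an RCA (79.5%, 64.5 to 89.2), where genes of similar length gave 24.1%. The interval of the markers and that of the hepatocyte genes did not overlap. An RCA needs a region called in control, and genes were matched by length, not by their number of control regions. The shares therefore mix how often a region was called in control with how often that call was lost. Regions called in Alb-D2KO alone lay within 10 kb of 0 markers and of 222 other protein-coding genes (1.01%). The nearest Alb-D2KO-only region of a marker was 244 kb from Cdh5, the gene of the endothelial junction protein VE-cadherin, and the median over the markers was 3635 kb.

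**Figure D1:**
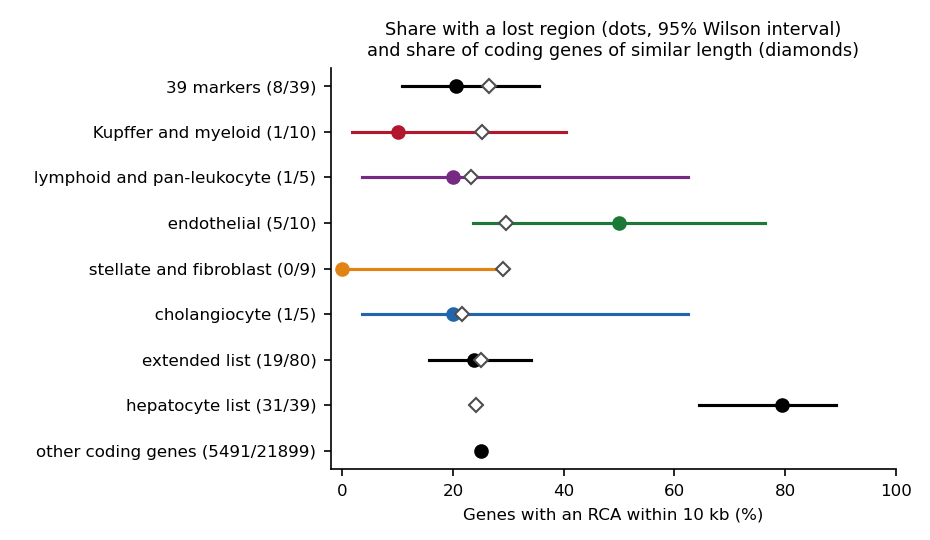
Share of genes with an RCA within 10 kb of the gene body (percent, horizontal axis) for the 39 markers, their 5 cell classes, the extended marker list, the hepatocyte list and the other protein-coding genes. Dots with lines are shares with 95% Wilson intervals and open diamonds the share of coding genes of similar length; the diamond of the 39 markers, at 26.6%, sits inside their interval, and that of the hepatocyte list, at 24.1%, sits far below its interval.

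The 8 markers with an RCA were Spi1 among the myeloid genes, Cd79a among the lymphoid genes, Stab1, Stab2, Pecam1, Fcgr2b and Eng among the endothelial genes, and Sox9 among the cholangiocyte genes. By class, 1 of 10 myeloid markers had an RCA (10%, 1.79 to 40.4), 1 of 5 lymphoid (20%, 3.62 to 62.4), 5 of 10 endothelial (50%, 23.7 to 76.3), none of 9 stellate and fibroblast markers (0%, up to 29.9) and 1 of 5 cholangiocyte markers (20%, 3.62 to 62.4). The shares of other genes of similar length were 25.3%, 23.3%, 29.6%, 29.0% and 21.7%, each inside the interval of its class. The endothelial share was the highest and the stellate share the lowest, but the intervals of all classes overlapped, and with 5 to 10 genes in a class the counts do not set the classes apart. The sharpest change came with an alternative that kept RCAs with an area of at least 300, where the area is the one the authors' peak caller gave each region under its significance curve. Under it, only Stab1 and Eng of the 8 remained, and the share of similar genes fell to 13.5%. With a summit q under 0.001 instead, 6 of the 8 remained, and both RCAs of Eng dropped out (q of 0.00288 and 0.00105).

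The sequences that follow are the RCAs inside the bodies of Spi1, Pecam1, Fcgr2b and Eng, the RCA just upstream of Sox9 and the second RCA of Eng, since these are the stretches of DNA that lost their call in Alb-D2KO liver. They are read from the plus strand of GRCm38 (mm10) as RefSeq gives it, 5′ to 3′, and those longer than 300 bases are cut to 300 bases around the summit. Capitals mark exact matches to 8 short motifs on either strand. The macrophage and B cell factor SPI1 was represented by GAGGAAG. The letters used for the GATA factors of blood and endothelial cells were AGATAA, and those for ETS factors at large were CAGGAAG. For the stress-responsive AP-1 dimers either TGACTCA was accepted or, with the other central base, TGAGTCA. The promoter factor SP1 was represented by GGGCGG, and the hepatocyte and myeloid C/EBP factors by TTGCNNAA. The hepatocyte receptor HNF4A was searched for as CAAAGTCCA, and the core of sites of the insulator factor CTCF as CCANNAGNNGG. Where matches adjoin, the capitals run together. The CTCF core was added after the sequences had been read.
Spi1, intron, chr2:91101489-91101674: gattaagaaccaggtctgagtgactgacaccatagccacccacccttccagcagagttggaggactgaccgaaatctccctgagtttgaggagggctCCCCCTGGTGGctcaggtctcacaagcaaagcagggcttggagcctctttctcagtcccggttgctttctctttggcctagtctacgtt
Pecam1, intron, chr11:106678079-106678315: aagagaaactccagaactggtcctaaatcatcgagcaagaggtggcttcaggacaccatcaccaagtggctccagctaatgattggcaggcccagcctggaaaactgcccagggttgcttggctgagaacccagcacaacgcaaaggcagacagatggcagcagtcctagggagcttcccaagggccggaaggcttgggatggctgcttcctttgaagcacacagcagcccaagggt
Fcgr2b, intron, chr1:170972919-170973160: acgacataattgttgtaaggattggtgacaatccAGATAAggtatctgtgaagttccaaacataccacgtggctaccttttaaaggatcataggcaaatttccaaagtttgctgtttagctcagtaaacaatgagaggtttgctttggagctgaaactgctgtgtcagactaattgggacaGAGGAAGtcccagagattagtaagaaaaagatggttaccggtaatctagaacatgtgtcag
Eng, intron, chr2:32661662-32661961: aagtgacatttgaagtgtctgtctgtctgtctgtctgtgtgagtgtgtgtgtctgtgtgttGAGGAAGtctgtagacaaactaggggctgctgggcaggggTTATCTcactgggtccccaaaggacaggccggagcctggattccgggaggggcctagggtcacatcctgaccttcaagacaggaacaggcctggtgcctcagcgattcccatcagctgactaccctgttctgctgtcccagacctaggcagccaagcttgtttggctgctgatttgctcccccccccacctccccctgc
Eng, downstream in Fpgs, chr2:32689503-32689692: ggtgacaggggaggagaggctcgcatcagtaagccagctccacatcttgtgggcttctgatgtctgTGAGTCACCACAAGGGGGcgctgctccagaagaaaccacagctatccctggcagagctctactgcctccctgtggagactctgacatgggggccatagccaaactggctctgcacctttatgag
Sox9, upstream, chr11:112781149-112781448: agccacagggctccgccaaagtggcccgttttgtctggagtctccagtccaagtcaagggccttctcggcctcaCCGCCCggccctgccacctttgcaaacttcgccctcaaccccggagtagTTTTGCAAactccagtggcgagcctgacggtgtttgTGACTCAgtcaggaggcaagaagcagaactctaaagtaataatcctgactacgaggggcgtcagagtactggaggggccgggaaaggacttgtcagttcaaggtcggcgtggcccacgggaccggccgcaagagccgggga

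Among the myeloid markers, Spi1 encodes PU.1, the ETS factor that directs macrophage and B cell development. Its RCA was 186 bp wide, lay in an intron 4769 bp from the nearest start site of Spi1, and had an area of 235 with a summit −log10 q of 3.21. No other protein-coding gene lay within 10 kb of that region, which carried a CTCF core and neither the SPI1 nor the ETS letters. The other 9 myeloid genes had no RCA in the window. The nearest RCA was 16.7 kb from Cd68, a lysosomal glycoprotein of macrophages, in an exon shared by Tnfsf13 and a readthrough gene. For Lyz2, lysozyme, it lay 60.6 kb away near Cpsf6, for Csf1r, the receptor that macrophages need to survive, 122 kb away in an intron of Camk2a, and for Adgre1, the F4/80 antigen, 124 kb away. The distances of the other five were 169 kb for Cd5l, 230 kb for Timd4, the phosphatidylserine receptor, 288 kb for the lectin Clec4f, 358 kb for the scavenger receptor Marco and 2615 kb for the complement receptor Vsig4 on chromosome X.

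Among the lymphoid markers, Cd79a, which encodes a signalling chain of the B cell receptor, had a pair of RCAs, both outside the gene. The first, chr7:24890331-24890706, was intergenic with an area of 218, lay 6675 bp from Cd79a and was closer to the ribosomal protein gene Rps19. The second, chr7:24905045-24905224, had an area of 233 and lay 2848 bp from Cd79a in an intron of Arhgef1. Assigning each region to its nearest coding gene alone therefore left no lymphoid marker with an RCA. The nearest RCA of Nkg7, a cytotoxic granule protein, was 13.8 kb away, and that of Cd3e, a chain of the T cell receptor complex, was 30.6 kb away at the promoter of Mpzl2. Ms4a1, which encodes CD20, and Ptprc, which encodes CD45 on all leukocytes, had none within 194 and 335 kb.

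Of the 10 RCAs, 6 lay within 10 kb of an endothelial marker, and 4 endothelial markers had an RCA in the gene body. Stab2, the hyaluronan receptor of sinusoidal endothelium, had an RCA of 190 bp with an area of 207 that lay 35872 bp into the gene and 31513 bp from its nearest start site. It counted as a promoter region because it met the start of an antisense transcript, Gm16271, and not because of Stab2 itself. Pecam1, the junction protein CD31, had an intronic RCA of 237 bp with an area of 278, 13121 bp from its nearest start site. Fcgr2b, an inhibitory IgG receptor of sinusoidal endothelium that B cells and macrophages also express, had an intronic RCA of 242 bp with an area of 217, 3057 bp from its nearest start site.

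Eng, the TGF-beta co-receptor endoglin, had the RCA with the largest area of the 10, an intronic region of 579 bp at chr2:32661435-32662013 with an area of 349 and a summit −log10 q of 2.54, the lowest of the 10. Its second RCA, of 190 bp with an area of 211, lay 6834 bp past the gene in an intron of Fpgs, which encodes the folate-retaining enzyme folylpolyglutamate synthase. At Stab1, a scavenger receptor related to Stab2, the RCA of 361 bp at chr14:31130764-31131124 with an area of 347 was 7889 bp from the gene and lay at the promoter of Nt5dc2. It had the highest summit −log10 q of the 10, at 3.75, and a GC content of 72.3%. The other 5 endothelial genes had none within 72.7 kb for Cdh5, 139 kb for the sinusoidal lectin Clec4g, 177 kb for the angiopoietin receptor Tek, 205 kb for the hyaluronan receptor Lyve1 and 611 kb for the VEGF receptor Kdr.

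None of the 9 stellate and fibroblast markers had an RCA within 10 kb, nor within 50 kb. Within 50 kb, 44.3% of other coding genes had an RCA, which is above 29.9%, the upper limit for 0 of 9. This is 1 class at 1 window, and the difference was not tested. In the extended list described below, 4 of 16 stellate and fibroblast markers had an RCA within 10 kb. The nearest was 66.5 kb from Pdgfrb, the PDGF receptor of stellate cells, in the same Camk2a intron that was nearest to Csf1r. For Col1a1, a chain of type I collagen, it was 70.5 kb away in an exon of Samd14, for Reln, reelin, 87.1 kb away, and for Lrat, the enzyme that esterifies retinol, 91.5 kb away with the fibrinogen gene Fgg as the nearest coding gene. Those of Des (desmin), Dcn (decorin), Col1a2, Col3a1 and Hgf (hepatocyte growth factor) lay at 145, 166, 208, 571 and 873 kb. The region nearest to Col3a1 was in an exon of Slc40a1, the iron exporter ferroportin, which Kupffer cells express strongly.

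Among the cholangiocyte markers, Sox9, a transcription factor of biliary cells and their precursors, had an RCA of 409 bp, chr11:112781149-112781557, that ended 667 bp upstream of the gene with its summit 1022 bp from the start site. It lay in an intron of the noncoding gene BC006965, and no other coding gene was within 10 kb. Its area of 206 was the lowest of the 10 and close to 200.004, the lowest of all RCAs, and its summit q of 0.00271 would not pass a threshold of 0.001. Spp1, osteopontin, was 18.4 kb from an RCA at the promoter of Pkd2. The keratin genes Krt7 and Krt19 were 71.2 and 134 kb from their nearest RCA and the adhesion molecule gene Epcam 298 kb.

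**Figure D2:**
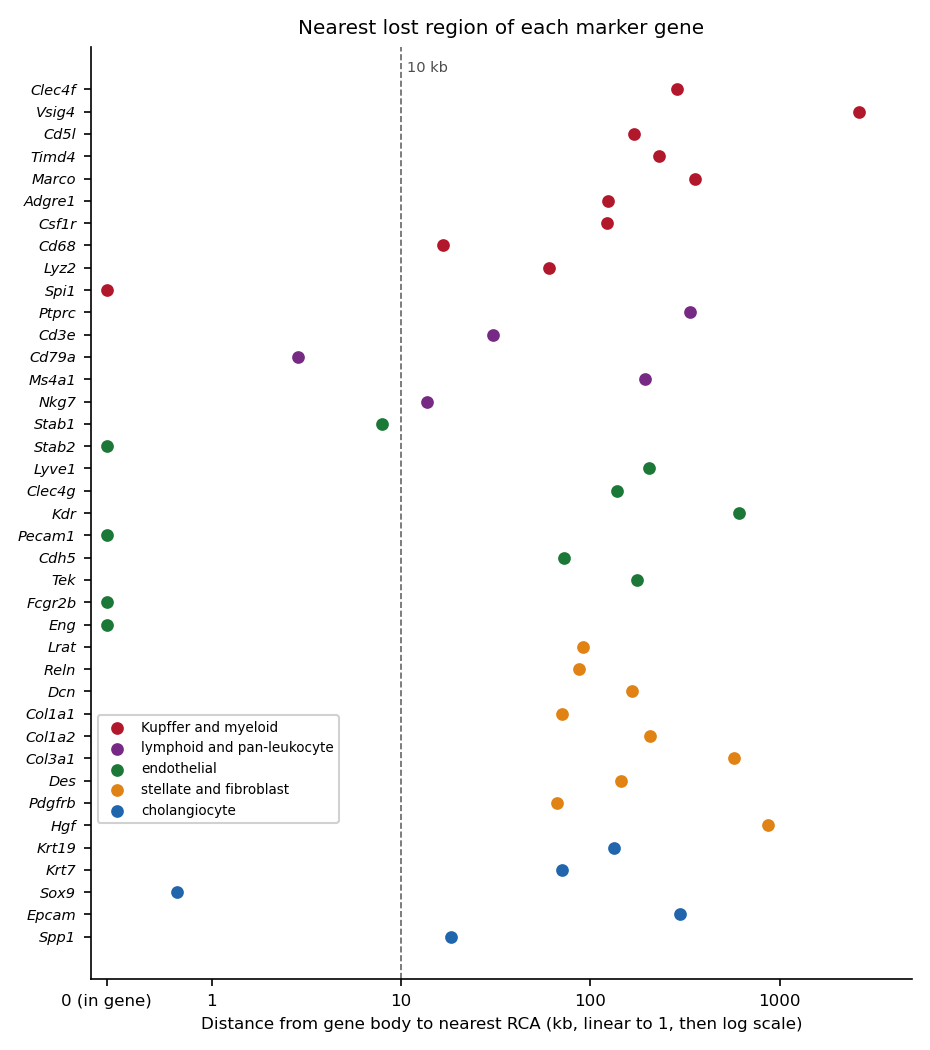
Distance from the gene body to the nearest RCA (kb, horizontal axis, linear to 1 and logarithmic beyond) for each of the 39 markers, coloured by cell class, with 0 for an RCA inside the gene. The dashed line marks 10 kb; 5 markers sit at 0, the 9 stellate and fibroblast genes sit between 66.5 and 873 kb, and Vsig4 is farthest at 2615 kb.

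Over the 31 markers without an RCA in the window, the nearest was 13.8 to 2615 kb away, with a median of 145 kb. It lay within 50 kb of 4 markers, between 50 and 200 kb of 16 and beyond 200 kb of 11. Over all 39 markers, the median distance was 122 kb (quartiles 17.5 and 206), and over the other protein-coding genes it was 69.6 kb (9.92 and 313). By class, the medians were 147 kb for myeloid, 30.6 kb for lymphoid, 40.3 kb for endothelial, 145 kb for stellate and 71.2 kb for cholangiocyte markers. For the hepatocyte genes the median was 0, because an RCA overlapped the body of most of them.

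Other windows gave a similar picture. An RCA overlapped the body of 5 markers (12.8%), against 15.7% of other coding genes and 61.5% of the hepatocyte genes. Within 1, 5, 50 and 100 kb the markers with an RCA numbered 6 (15.4%), 7 (17.9%), 12 (30.8%) and 19 (48.7%), and the other coding genes reached 17.1%, 21.1%, 44.3% and 56.3%. The share of the markers was thus below that of other coding genes at each window, but the latter lay inside the 95% interval of the markers each time.

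**Figure D3:**
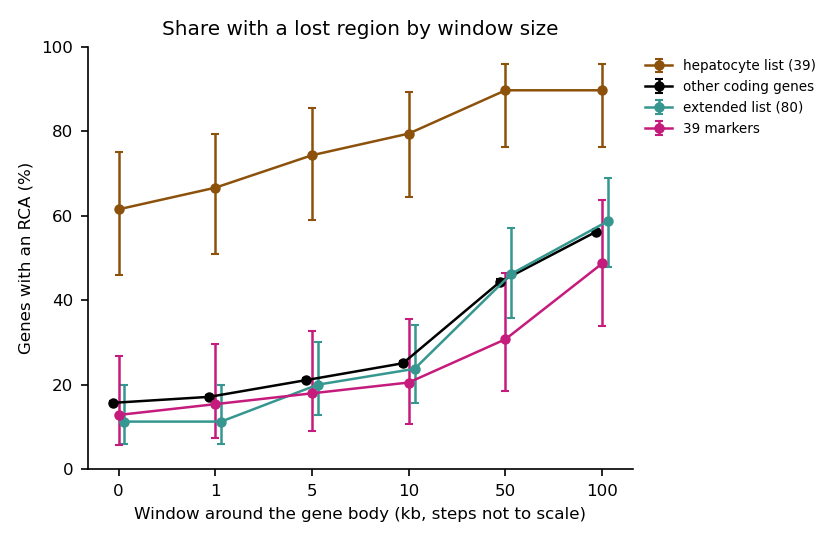
Share of genes with an RCA (percent, vertical axis, with 95% Wilson intervals) for windows of 0 to 100 kb around the gene body (horizontal axis, steps not to scale), for the 39 markers, the extended list, the hepatocyte list and the other protein-coding genes. The markers run from 12.8% to 48.7% beside the other coding genes, at 15.7% to 56.3%, and the hepatocyte list runs above both, from 61.5% to 89.7%.

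The 10 RCAs near markers were small for the list. Their area had a median of 226 (quartiles 212 and 267) and ran from 206 to 349, and 8 of the 10 were under 300. Over all 8021 RCAs on chromosomes 1 to 19, X and Y, the median was 278 (233 and 351) with 59.2% under 300, and over the 78 RCAs near hepatocyte genes it was 296 (256 and 387) with 53.8% under 300. With 10 regions, the 95% interval of the median for the markers, from order statistics, was 207 to 347 and held both of these medians. The median width was 239.5 bp against 327 bp for all RCAs and 417.5 bp near hepatocyte genes. The median summit −log10 q was 3.20 for the markers and 3.14 for all RCAs.

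**Figure D4:**
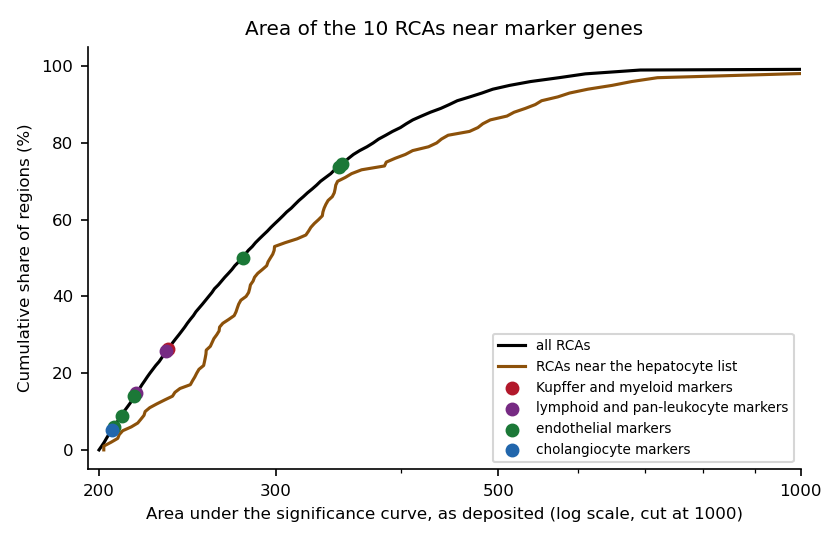
Cumulative share of regions (percent, vertical axis) at or under a given area under the significance curve (deposited values, horizontal log axis, cut at 1000) for all RCAs (black) and those near hepatocyte genes (brown). Points place the 10 RCAs near markers on the curve of all RCAs; 7 of them lie at areas of 206 to 235, Pecam1 lies at 278, and Stab1 and Eng lie at 347 and 349.

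By position, 7 of the 10 RCAs were intronic, 2 met a start site, 1 was intergenic and none was in an exon. All RCAs split into 40.1% intronic, 19.4% promoter, 30.3% intergenic and 10.2% exonic, but they include regions far from any gene. Of the 6381 RCAs within 10 kb of other protein-coding genes, a closer match, 2997 were intronic, 1468 promoter, 1157 intergenic and 759 exonic. Neither of the 2 promoter regions near markers was within 200 bp of a start site of the marker itself. With start sites of any gene counted, 22 of 78 RCAs near the 39 hepatocyte genes were promoter regions, beside the 2 of 10 near markers. A promoter window of 1000 bp in place of 200 bp raised the count near markers to 5.

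The SPI1 letters were in 2 of the 10 regions, Fcgr2b and the intronic region of Eng, and the same pair held the GATA letters. Over all RCAs, 12.8% held the former and 14.2% the latter, and over RCAs of similar width 10.1% and 11.1% did. A CTCF core was in 4 regions, among them that of Spi1, the first of Cd79a and the second of Eng, and in 19.1% of all RCAs or 25.3% of RCAs of similar width. AP-1 letters were in 2 regions, Sox9 and the second of Eng (7.69% of all RCAs, 6.19% of those of similar width). SP1 letters were in Sox9 and Stab1 (20.9% and 16.8%), and C/EBP letters in Sox9, Stab1 and the first of Cd79a (20.9% and 17.4%). The HNF4A letters were in the Arhgef1 region near Cd79a alone (2.97% and 2.54%). The ETS letters were in none (17.2% and 14.1%), and the Pecam1 region matched none of the 8 motifs.

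The lists do not hold the regions open in both genotypes, so a marker without an RCA either kept its control regions or had none. The numbers in the region names rose along each chromosome, with 0 exceptions among the RCAs, and were read as the order of all regions called in a genotype, which no source used here states. On that reading, the gaps between the numbers of neighbouring RCAs bound how many control regions were kept between them. In 155 of 168 intervals between neighbouring Alb-D2KO-only regions, the number of kept Alb-D2KO regions fell within the bounds from the control numbers, and in 168 of 168 it did so with a tolerance of 10%. Near Cd3e, Hgf, Krt7 and Spp1 the numbers left no room for a control region, over spans between flanking RCAs of 73.1, 2248, 582 and 126 kb. Near Stab2, Pecam1 and Sox9 the RCA was the only control region, over spans of 268, 151 and 194 kb. A limit of 0 was thus found for 7 of the 39 markers and for 833 of the other 21899 protein-coding genes. It was found for 6 of the 39 hepatocyte genes and 4 of the 80 genes of the extended list. Genes without an RCA on both sides had no limit and were not counted as 0. Why the shares differed was not tested. Eng, Lrat and Dcn could have kept at most 1 control region, and Clec4f, at the other end, at most 13 over 1284 kb. Near Cd79a at least 1 control region was kept, since the numbers of its RCAs leave 1 region between them.

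**Figure D5:**
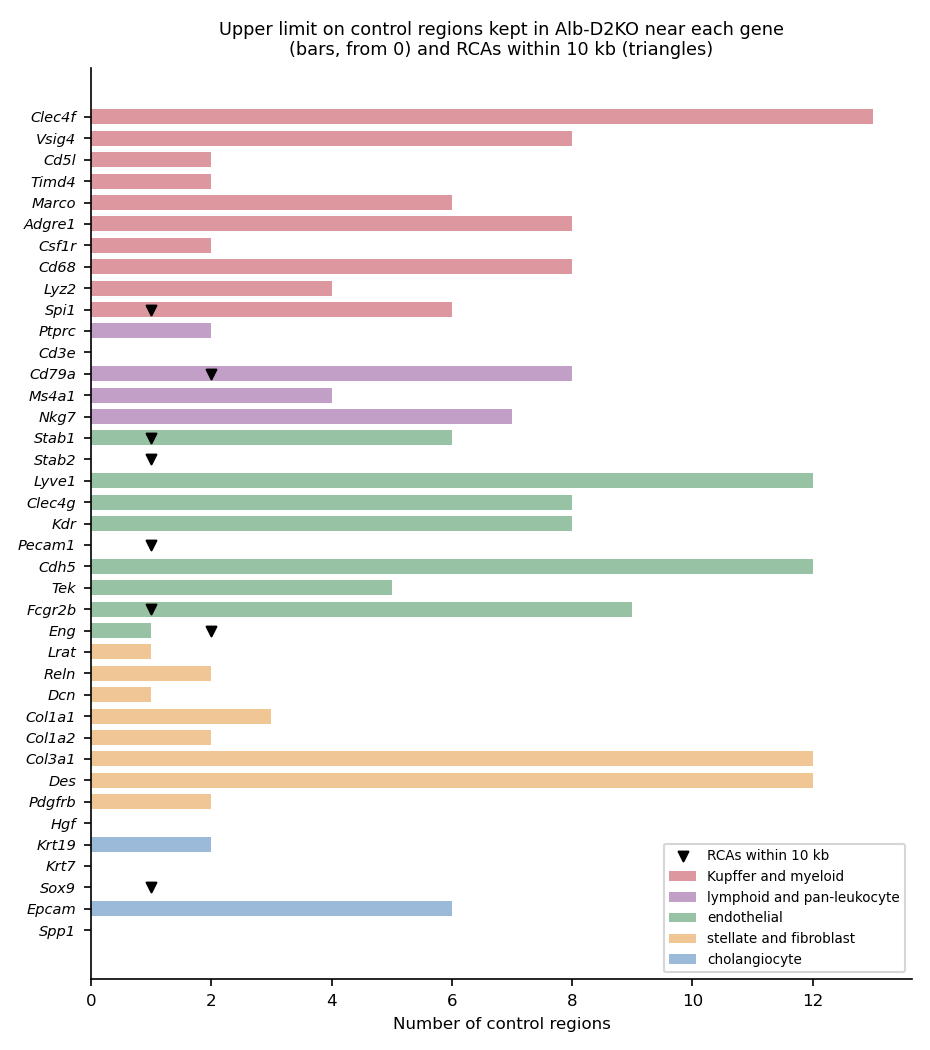
Number of control regions (horizontal axis) near each of the 39 markers. Bars give the upper limit on control regions kept in Alb-D2KO between the RCAs that flank the gene, coloured by cell class, and triangles the RCAs within 10 kb; 7 genes have a limit of 0, of which Stab2, Pecam1 and Sox9 carry a triangle, and the highest limit is 13 at Clec4f.

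Within 1 Mb of a marker, the share of control regions that were RCAs, counted from the RCA numbers, had a median of 35.6% over the 35 markers with enough regions to compute it, close to 35.9% for the whole genome. It ran from 10% at Lyve1, where the window held 2 RCAs, to 85.7% at Dcn, where it held 7. The share was counted over the region numbers after the first RCA, up to and including the last. Control regions kept before the first or after the last RCA in the window were not counted. The median was 38.5% around other coding genes and 52.6% around the hepatocyte genes. Lrat (81.2%), Spp1 (71.4%), Sox9 (68.2%) and Pecam1 (61.1%) were in neighbourhoods with a high share. Lrat and Spp1 had no RCA within 10 kb, but the region numbers left room near them for at most 1 and 0 control regions.

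An extended list of 80 further markers, 16 for each class, was counted in the same way. An RCA lay within 10 kb of 19 of them (23.8%, 15.8 to 34.1), close to the 25.1% of other coding genes. The count was 4 of 16 in the myeloid, lymphoid, endothelial and stellate classes and 3 of 16 in the cholangiocyte class, so the order of the classes among the 39 markers, with endothelial genes first and stellate genes last, was not seen again. The 35 RCAs had a median area of 274, near that of all RCAs. The largest summed areas were at Cx3cr1, the fractalkine receptor of monocytes (4 RCAs, 1763), Gpr182, an endothelial chemokine scavenger (5, 1563), Dnase1l3, a secreted nuclease made by macrophages and sinusoidal endothelium (4, 1028), Cd4 (3, 987) and Id3, a transcriptional regulator that Kupffer cells need (3, 902).

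These regions differed in how clearly they belonged to the marker. The annotated body of Cx3cr1 runs over Gorasp1, Csrnp1 and Xirp1, and each of its RCAs lay in one of these genes. At Gpr182, the RCA with the largest area, 552, overlapped the gene itself. Dnase1l3 had 3 RCAs inside the gene, of which 1, with an area of 225, was a promoter region at chr14:7994203-7994464. Cd4 had a pair of intronic RCAs with areas of 352 and 361 and another RCA in an exon of Gpr162, and the RCAs of Id3 were all intergenic, 1030 to 3523 bp from the gene. For comparison, the hepatocyte gene with the largest summed area was Apoc3 (6 RCAs, 3263), followed by Cebpa (5, 3058), Apoa1 (5, 2919), Hnf4a (6, 2349) and Ahsg (4, 1901), and the RCAs of the neighbouring Apoa1 and Apoc3 were largely shared.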

How the data were processed

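ATAC-seq was made from 50000 liver nuclei per library, with 4 control and 4 Alb-D2KO libraries. The authors removed adapters with NGmerge 0.3, aligned paired reads to mm10 with BWA 0.7.17, dropped duplicate, chimeric and supplementary alignments and those with a mapping quality under 30, and called open regions with Genrich 0.6 (q threshold 0.05) on the libraries of a genotype together, leaving out regions called in single libraries. FastQC and Picard are also named in the submitters' processing notes. Regions of one genotype overlapping the other were subtracted. The deposited signal is the area under the significance curve of each region, with a lowest value of 200.004, and the deposited score is that area per base pair. The deposited −log10 q is that of the summit, and the summit −log10 p was not used. Depth per library is unknown from these lists, and p-values for a difference between genotypes could not be computed, so no test was made.

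Genes came from GENCODE M21, an mm10 annotation of another release than the study used, and all 21 chromosomes fitted the lengths of GRCm38. A region was assigned to each gene whose body lay within 10 kb, and classed as promoter (at most 200 bp from any start site), otherwise exon, intron or intergenic, in that order. Genes of similar length were protein-coding genes of the same length decile. Wilson intervals are at 95%. Sequence was read from the RefSeq copy of GRCm38. The sequence of another region inside a marker is not reported here. All 39 markers were named, with every region near them, the 5 genes with the largest summed area from the hepatocyte and the extended lists, and other genes holding a region of a marker. The members and lists were chosen with earlier results of these data known. Neighbouring genes of the nearest RCAs outside 10 kb, and remarks on single genes of the extended list, were added after their values were seen. Alternatives were other windows, the start site, the nearest gene, an area of at least 300, q under 0.001, merging within 100 bp, other promoter rules and other choices of similar length. The counting was tested on simulated regions. Python 3.11.15 with numpy 2.4.6, pandas 2.3.3, scipy 1.17.1, pysam 0.24.0 and matplotlib 3.10.9 was used.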

Additional observations from a re-analysis of the deposited data

How the results depend on the processing

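No paired analysis was possible because the regions were called on pooled libraries, and for the same reason no library could be left out. Of the values under an alternative, 78 stayed within the allowed range and 48 moved, and the cause was not tested except where the alternative keeps fewer or more regions by construction. The markers with an RCA fell from 8 to 5 with the gene body only, to 5 within 10 kb of a start site, and to 2 with an area of at least 300, where the hepatocyte genes fell to 19 and the extended list to 11 genes. Their 10 regions became 5 with the gene body, 6 at 1 kb, 31 at 50 kb, 6 around start sites, 6 by nearest coding gene, 2 with an area of at least 300 (median area 348) and 6 with q under 0.001. The promoter regions became 1 with the gene body, at 1 kb, at 5 kb, around start sites, by nearest gene, with an area of at least 300 and with coding start sites only. They became 10 at 50 kb, 5 within 1000 bp and 0 at the marker's own start. The share of other genes of similar length was 17.4% with the gene body, 18.8% at 1 kb, 22.6% at 5 kb, 45.7% at 50 kb, 20.8% around start sites, 21.1% by nearest gene, 13.5% with an area of at least 300, 20.7% with q under 0.001, and 25.1% over coding genes of any length. By class, the lymphoid count became 0 with the gene body, at 1 kb, by nearest gene and with an area of at least 300, and 3 at 50 kb. The cholangiocyte count became 0 with the gene body, with an area of at least 300 and with q under 0.001, and 2 at 50 kb. The myeloid count became 2 at 50 kb and 0 with an area of at least 300, and the endothelial count 2 around start sites and 2 with an area of at least 300. The extended list had 9 genes with the gene body, 9 at 1 kb and 37 at 50 kb. The number of markers with no kept control region, 7, was 9 with the gene body, 1 kb and 5 kb and 5 at 50 kb, alternatives added after seeing the data. Pooled calls without counts limit all values to presence or absence of a call, and 8 of the 10 regions near markers lie under an area of 300.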
